A study of Mus musculus with 8 samples.

Results

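Chondrocytes that carried Ucma and its companion genes, with little Dlk1, Fbn2 and Mmp2, made up 668 of the 6999 P10 cells that passed the filters, or 9.54% (95% Clopper-Pearson interval 8.87% to 10.3%), and 668 of the 13480 kept cells of both ages. The cells were chosen by their measured UMIs (unique molecular identifiers, each standing for 1 captured transcript). A kept cell had 500 or more genes and 1000 or more UMIs, of which mitochondrial genes took no more than 15%. Members also had under 5 UMIs of Krt8, a keratin of nucleus pulposus cells, and under 5 of the cycling genes Top2a, Mki67 and Birc5 together. They needed at least 5 Acan UMIs and at least 2 UMIs in at least 2 of Ucma, Penk, Calml3, Ptx3 and Islr. That number had to exceed the same count in the sets Col10a1, Ihh, Panx3, C1qtnf3, Epyc (hypertrophic), Omd, Lox, Frzb, Efemp1, Cxcl14, and Thbs4, Tnmd, Mfap4, Cpz, Sema3b (tendon-type genes). Fewer than 2 of Dlk1, Fbn2 and Mmp2 could reach 2 UMIs.

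Whole intervertebral discs from the lumbar (L1 to L6) and proximal tail (T5 to T9) spine of Tagln-CreERt2;R26tdTomato mice were profiled by droplet single-cell RNA-seq at P10 and at 8 weeks. All mice had received tamoxifen at postnatal day 5, so the ages share genotype and induction, and no uninduced cells were analysed here. Each age has 4 samples whose cells lie in 1 matrix with no map from cells to samples, so each age is 1 library and no test was possible. An effect of age cannot be told apart from one of the library. Recombination depends on the Tagln promoter, which is active in smooth muscle and other contractile cells as well as in the progenitors the study is about, and discs of several spinal levels were pooled.

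Ucma is a small vitamin K-dependent protein secreted by chondrocytes of the resting and upper zones of growth cartilage. Penk encodes the enkephalin precursor, Ptx3 a pentraxin of the innate immune response and of hyaluronan-rich matrix, Calml3 a calmodulin-like protein, and Islr a leucine-rich repeat protein of mesenchymal cells. Dlk1 is an imprinted transmembrane protein that restrains differentiation, Fbn2 is a fibrillin of developing microfibrils, and Mmp2 is a gelatinase. In growth cartilage, PTHrP (Pthlh) from resting cells keeps chondrocytes from hypertrophy, and Ihh from prehypertrophic cells maintains PTHrP.

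On GRCm38, Ucma lies at chromosome 2, 4976122 to 4985748. The RefSeq table (GRCm38.p6) held 250 bases upstream of the start of Ucma, chr2:4975872-4976121, plus strand, shown because Ucma was the one gene of its set that every one of the 668 cells carried at 2 or more UMIs. The upstream bases of Ldha (chr7:46845554-46845803, plus strand), Pgk1 (chrX:106186850-106187099, plus strand) and Bnip3 (chr7:138909507-138909756, minus strand), enzymes of glycolysis and a mitophagy receptor, are shown as genes of the glycolysis and hypoxia list with the motif below, and were chosen after the search. Higd1a (chr9:121857797-121858046, minus strand), a gene of the same list whose ratio over Dlk1-high cells was larger than that of Ldha, is shown as one without it. Capitals mark ACGTG, the core that hypoxia-inducible factors bind, and CACGT, the same letters on the other strand. The palindrome CACGTG holds both.
Ucma: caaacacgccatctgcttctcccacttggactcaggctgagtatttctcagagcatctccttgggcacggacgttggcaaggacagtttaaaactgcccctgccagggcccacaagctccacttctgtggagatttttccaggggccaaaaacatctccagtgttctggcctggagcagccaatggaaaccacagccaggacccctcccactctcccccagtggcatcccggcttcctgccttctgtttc
Ldha: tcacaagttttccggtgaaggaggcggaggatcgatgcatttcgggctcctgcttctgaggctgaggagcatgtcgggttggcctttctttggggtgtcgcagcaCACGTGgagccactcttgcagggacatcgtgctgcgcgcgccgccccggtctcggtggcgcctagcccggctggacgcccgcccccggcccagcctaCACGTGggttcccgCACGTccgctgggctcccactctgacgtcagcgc
Pgk1: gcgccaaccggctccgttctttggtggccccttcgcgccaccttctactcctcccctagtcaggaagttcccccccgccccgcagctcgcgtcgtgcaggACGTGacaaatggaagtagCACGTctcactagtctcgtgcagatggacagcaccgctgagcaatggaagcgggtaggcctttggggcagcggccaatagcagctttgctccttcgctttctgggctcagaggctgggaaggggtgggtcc
Bnip3: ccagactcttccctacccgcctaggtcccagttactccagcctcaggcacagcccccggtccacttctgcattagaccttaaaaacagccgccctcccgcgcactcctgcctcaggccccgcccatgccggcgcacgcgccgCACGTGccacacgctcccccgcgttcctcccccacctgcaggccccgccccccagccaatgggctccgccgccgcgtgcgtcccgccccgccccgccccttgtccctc
Higd1a: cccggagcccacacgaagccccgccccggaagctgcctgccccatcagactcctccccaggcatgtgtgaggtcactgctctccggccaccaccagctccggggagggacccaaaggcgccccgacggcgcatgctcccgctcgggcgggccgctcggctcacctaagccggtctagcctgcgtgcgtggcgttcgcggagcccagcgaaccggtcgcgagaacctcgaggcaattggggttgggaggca
ACGTG was present upstream of 10 of the 22 glycolysis and hypoxia genes with a RefSeq entry, or 45.5%. It was not found upstream of Gapdh, Tpi1, Pfkp, Pfkl, Eno1 or Pdk1. Of all 27025 genes 16.6% held it, taking the first start listed for each. The list was chosen as hypoxia genes, so its share describes the list and is no result about these cells. The SOX cores ACAAAG (16.5% of all genes) and AACAAT (9.65%) were searched in the upstream bases of the Ucma set. Neither was found in Ucma, Ptx3 or Islr, the 3 with an entry, which says only that these letters are not in this window.

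Ucma had the most UMIs of its set, and its cells differed mainly in which partner came with it. The commonest combination was Ucma with Penk and Islr alone, in 202 cells (30.2%). All 5 genes reached 2 UMIs in 54 cells, 4 of them in 226, 3 in 294 and 2 in 94. Per cell, Ucma ran from 2 UMIs through a median of 50.5 to 292. Penk had a median of 4 UMIs and a maximum of 102, and 63 cells had none. Ptx3 was the most uneven, with 377 cells at 0, an upper quartile of 3 and a maximum of 72. Mmp2 was the gene that the rule most often let through: 491 cells held it at 2 or more UMIs, against 80 for Dlk1 and 3 for Fbn2. Dlk1 had a median of 1 UMI per cell and at least 1 in 50.7% of the cells, a level at which free RNA and expression were not separated.

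The limits of the rule cut through a continuum. In 350 of the 668 cells the Ucma set led the next set by a single gene, and 321 further cells were left out because the sets tied. Ucma-set cells divided into 94 with none of Dlk1, Fbn2 and Mmp2, 574 with 1, 1081 with 2 and 237 with all 3, so 574 cells lay just inside the limit and 1081 just outside it. Acan, the aggrecan core protein, set few of the choices: 3 cells had 5 to 9 UMIs and 7 otherwise suitable cells had 1 to 4.

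The cells carried the cartilage genes that the name chondrocyte implies. All 13 cartilage markers found in the files were detected, every cell held at least 100 Col2a1 UMIs, and Col2a1, type II collagen, stood at 57418 CPM (the class's UMIs of a gene per 1000000 of its summed gene UMIs). Sox9, the chondrogenic transcription factor, was at 1355 CPM and was seen in 99.0% of cells. At least 10 summed UMIs of endothelial markers were present in 1 cell, of macrophage and erythroid markers in 0, of neutrophil markers in 2, of mural markers in 19 and of nucleus pulposus markers in 20. Osteoblast markers reached 10 UMIs in 44 cells, mostly as Col1a1. Tendon markers, Fmod and 5 genes of the rule among them, reached 10 UMIs in 654 cells (97.9%) and hypertrophic markers, which include Epyc, C1qtnf3 and other genes of the rule, in 380 (56.9%). Macrophage markers C1qb and C1qc were at 0.

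Before the comparisons, depth needs stating. The P10 library had 143203550 UMIs in 7690 barcodes, and the 668 cells held 12292182 UMIs, with a median of 18118.5 per cell. Medians were 16738.5 in Ucma cells with high Dlk1 (2 or 3 of Dlk1, Fbn2 and Mmp2, 1318 cells), 22805 in Omd Lox Frzb chondrocytes (1450 cells) and 31607.5 in hypertrophic chondrocytes (440 cells). The 2 libraries shared 10 kept barcodes, 0 of them among the 668. Scrublet called 0 doublets at P10 and so did not work there, and 7 of the 668 cells had a score above 0.25. Intervals below cover counting error only, since UMIs of 1 library are no measure of the spread between animals.

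**Figure D1:**
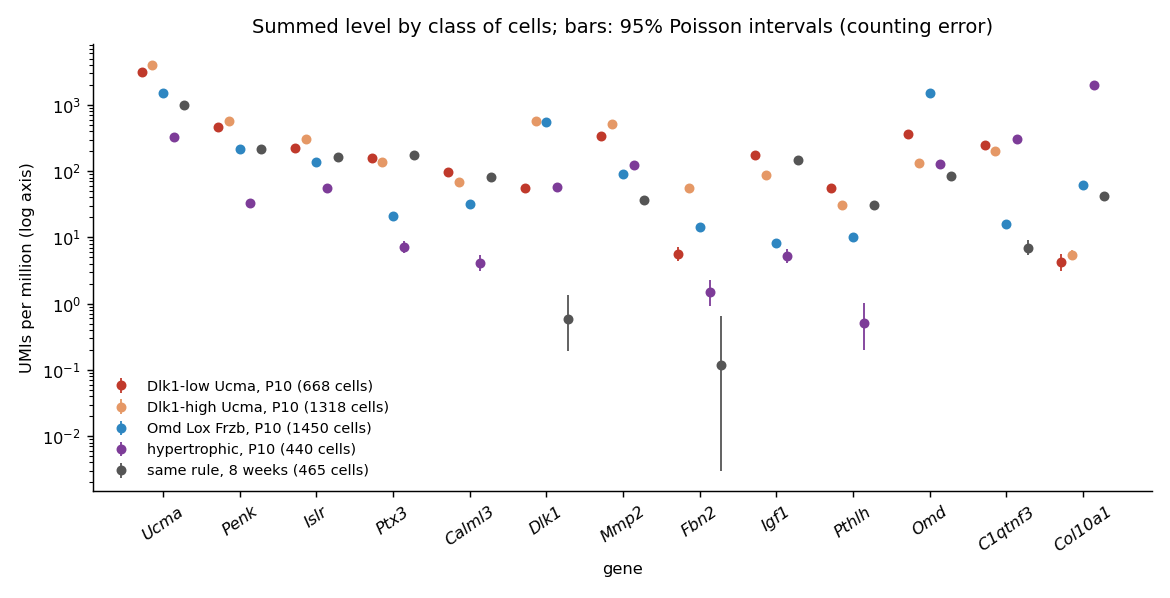
Summed UMIs per 1000000 (log axis) of 13 genes in 5 classes of cells, with 95% Poisson intervals for counting error. Dlk1-low Ucma cells had Dlk1 at 55.8 CPM against 572 in Dlk1-high cells, and Igf1 at 178 CPM against 88.8; the first 8 genes and Omd, C1qtnf3 and Col10a1 were part of the rule.

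The levels that the rule set are given as a description. Ucma stood at 3114 CPM, against 4070 in Dlk1-high cells, 1498 in Omd Lox Frzb and 332 in hypertrophic chondrocytes. Penk followed the same order, at 464, 576, 215 and 33.0 CPM. Calml3 and Ptx3 were instead highest in the Dlk1-low cells among the P10 classes, at 95.6 and 157 CPM against 69.0 and 136 in Dlk1-high cells. Dlk1 was at 55.8 CPM against 572, Fbn2 at 5.61 against 55.4 and Mmp2 at 340 against 523. For the level of free RNA, the 53 neutrophils of this library, which should lack these genes, had 68.6 CPM of Ucma and 13.7 of Penk at a median of 4293 UMIs.

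Igf1, the growth factor, was higher in the Dlk1-low cells than in each of the other 3 classes. It stood at 178 CPM (log2 ratio 1.00, 0.91 to 1.09, over Dlk1-high cells), and was at 88.8 in Dlk1-high, 8.21 in Omd Lox Frzb and 5.31 in hypertrophic cells. Genes were ranked by the smallest interval bound over the 3 comparisons, with the rule's genes left out. Pthlh, which encodes PTHrP, stood at 56.5, 30.3, 10.3 and 0.502 CPM in that order. Gas6, a vitamin K-dependent ligand of TAM receptors, was at 62.7, 32.8, 23.2 and 3.23 CPM, and the transcriptional cofactor Lmo1 at 32.9, 16.5, 9.42 and 4.88. The receptor phosphatase Ptprd (38.4 against 19.4 in Dlk1-high cells) and the chemokine Cxcl1 (178 against 89.8) followed. Of 8435 genes measured in all 3 comparisons, 5 were at least 2-fold higher in all of them: Gal, Prg4, the smooth muscle calponin Cnn1, Gng13 and Klk9.

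These genes differed in how many cells carried them. Igf1 was seen in 47.3% of the 668 cells, Gas6 in 49.9% and Ptprd in 40.9%, and the 5 cells richest in each held 9.25%, 7.26% and 6.36% of its UMIs. Pthlh was seen in 19.3% and Cxcl1 in 24.3%, with 31.1% and 29.2% of their UMIs in 5 cells. Pthlh was also at least 2-fold higher in the 44 Rbp4-rich cells described below than in the other members. Gal, the galanin precursor, and Prg4, lubricin, ranked high but came from few cells: 5 cells held 77.5% of the UMIs of each. Without the 5 richest cells of each class, the Prg4 log2 ratio over Dlk1-high cells was 0.01 in place of 1.44 and the Gal ratio 0.40 in place of 1.63. Klk9 had 70.0% of its UMIs in 5 cells, and without them its ratios over the 3 classes were 0.72, 0.57 and 0.69, below 2-fold. Cnn1 had 46.1% in 5 cells and kept a ratio of 1.37 over Dlk1-high cells, and Gng13 had 12.9% and a ratio of 0.96.

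The closest class was the Ucma cells with high Dlk1, and few genes separated the pair. Of 9808 genes with at least 100 UMIs, 74 (0.754%) were at least 2-fold higher in Dlk1-low cells and 142 (1.45%) at least 2-fold lower, with a median log2 ratio of -0.13 over all of them. The classes were divided by Dlk1, Fbn2 and Mmp2 of the same cells, so these shares are a description and nothing is read from them. A gene is called clear here where its 95% counting interval excludes 0. Of the same 9808 genes 981 (10%) were clear and higher and 3165 (32.3%) clear and lower, and a gene with many UMIs is clear at a smaller ratio than one with few.

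Among glycolysis and hypoxia genes, of 22 measured, 16 were clear and higher and 3 clear and lower, with a median log2 ratio of 0.31 beside -0.13 for all genes, and only Car9 reached 2-fold higher and Epas1 2-fold lower. Phosphoglycerate kinase Pgk1 was at 680.1 CPM against 448, Higd1a, a hypoxia-induced mitochondrial protein, at 710.5 against 457, and lactate dehydrogenase Ldha at 726 against 591. The mitophagy receptor Bnip3 had a log2 ratio of 0.76 (0.64 to 0.88). In the 44 Rbp4-rich cells described below, 6 of 19 genes of the list were at least 2-fold higher than in the other members. These were Pkm, Pfkp, Slc16a3, Bnip3, Car9 and Higd1a. Another 1 was at least 2-fold lower, where of all genes 8.51% were higher and 12.7% lower. Without cells that rich in Rbp4 the list's median over Dlk1-high cells was 0.26. With each cell thinned to 5000 UMIs (648 and 1310 cells deep enough), Pgk1 was detected in 89.5% of Dlk1-low and 71.8% of Dlk1-high cells. Ndufa4l2, a hypoxia-induced subunit homologue of respiratory complexes that was not in the list and was chosen after its values were seen, was detected in 89.0% against 63.2%, at 1277 and 571 CPM. Against Omd Lox Frzb cells the list had the opposite sign, with 17 of 24 clear and lower (19.2% of all genes were) and a median of -0.20, and against hypertrophic cells the median was -0.51. Of 26 oxidative phosphorylation genes 0 reached 2-fold over Dlk1-high cells in either direction, with a median of -0.06.

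Imprinted growth genes had 14 of 16 clear and lower and 0 clear and higher, with a median log2 ratio of -0.40; of all genes 32.3% were clear and lower, at a median of -0.13. Dlk1 is itself imprinted but was not counted in this list. Mest was at 152 CPM against 310, the cell-cycle inhibitor Cdkn1c at 536 against 954, H19 at 2087 against 2765 and Meg3, the noncoding neighbour of Dlk1, at 2620 against 3508. Unfolded protein response genes had 17 of 22 clear and lower and 0 clear and higher, with a median of -0.25. Among them was the chaperone Hspa5 at 861 against 1067 CPM. Cell cycle genes had a median of -0.58 over 16 genes, in classes that were both limited on Top2a, Mki67 and Birc5, and 0.30 where cells were thinned before the rule was applied. Matrix Gla protein Mgp, an inhibitor of calcification, was at 1675 against 3345 CPM.

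Within the insulin-like growth factor list, the ligand Igf1 was higher than in Dlk1-high cells while the ligand Igf2 (61.7 against 72.7 CPM) and most other members were lower. Of 13 genes 4 were clear and higher and 9 clear and lower, beside 10% and 32.3% of all genes. The median log2 ratio was -0.32, beside -0.13 for all genes. Of the 13, 2 were at least 2-fold lower, as were 1.45% of all genes. The 2 were the binding proteins Igfbp5, at 6.83 against 21.2 CPM, and Igfbp3, at 6.10 against 16.4. Both levels are low: Igfbp5 was seen in 22 of the 668 cells (3.29%), and 5 cells held 67.9% of its UMIs. The receptor Igf1r was at 60.8 against 75.6 CPM, and the clearance receptor Igf2r at 77.8 against 133. Pappa, the protease that frees Igf1 by cleaving its binding protein, was higher, at 60.3 against 42.9 CPM, and was at 29.6 in Omd Lox Frzb and 8.97 in hypertrophic cells.

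The inhibitors of DNA binding Id1, Id2 and Id3, known targets of BMP signalling, stood at 387, 135 and 389 CPM against 265, 82.8 and 301 in Dlk1-high cells, and each was lower still in Omd Lox Frzb and hypertrophic cells. The list of TGF-beta and BMP genes as a whole had 6 of 30 clear and higher, 13 clear and lower and the median of all genes, -0.13. In the complement, acute-phase and chemokine list 5 of 9 genes were clear and higher and 0 clear and lower, beside 10% and 32.3% of all genes. Tnfaip6, which modifies hyaluronan, was at 206 against 136 CPM and the chaperone clusterin, Clu, at 226 against 175. Both were also at least 2-fold higher in the 44 Rbp4-rich cells described below than in the other members. C1ra, C4b and Ccl2 were at least 2-fold lower there. For Clu, 5 cells held 22.2% of its UMIs, and without the 5 richest cells of each class its log2 ratio was 0.16. Without Rbp4-rich cells the list's median was 0.25 in place of 0.31.

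The bulk of the cartilage matrix was shared with the Dlk1-high cells. Of 19 cartilage matrix genes 3 were at least 2-fold higher (Prg4, Vcan and Cilp, all concentrated in the Rbp4-rich cells described below) and 0 lower, with a median of -0.07. Type IX and type XI collagen chains lay within a narrow range of their Dlk1-high levels, with Col9a1 at 5044 against 5430 CPM and Col11a2 at 3658 against 3839. Chondroadherin, Chad, a leucine-rich protein that binds cells to collagen, was lower than in Omd Lox Frzb cells, at 313 against 1867 CPM. Against those and against hypertrophic cells it was at least 2-fold lower. With cells thinned to equal depth, Chad was detected in 51.1% of Dlk1-low and 64.0% of Dlk1-high cells.

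**Figure D2:**
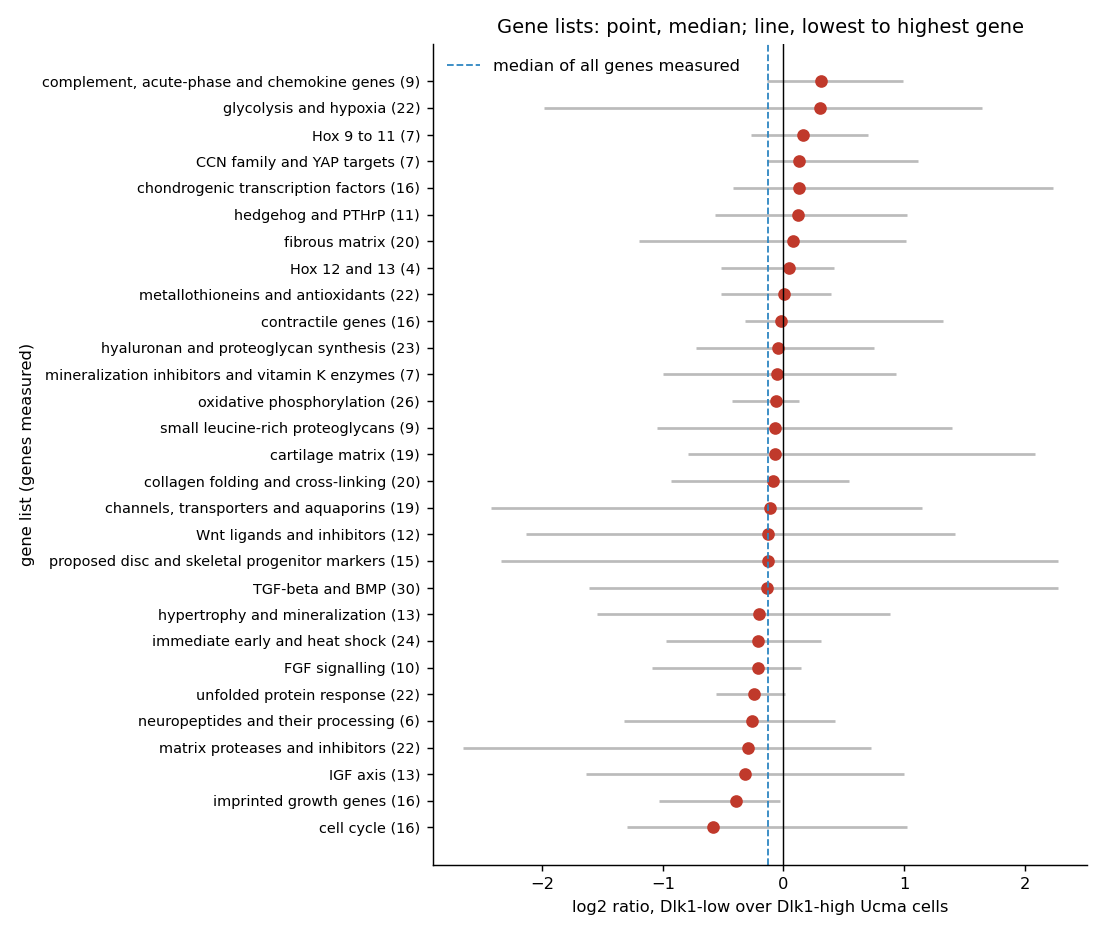
Log2 ratio of Dlk1-low over Dlk1-high Ucma cells for 29 gene lists, with the median gene as a point and the lowest and highest gene as a line; the dashed line is the median of all genes measured, -0.13. Glycolysis and hypoxia genes (0.31) lay near the top, and imprinted growth genes (-0.40) near the bottom.

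The extremes of this comparison came from few cells. The 12 lowest genes by interval bound were Selp, Sele, Retnlg, Rgs5, Cd36, Serpinf1, Pecam1, Emcn, Lbhd2, Cdh5, Hmcn1 and Aqp1, most of them endothelial, pericyte or neutrophil genes. In Dlk1-high cells 5 cells held 98.4% of the Selp UMIs, 97.1% of Rgs5 and 91.9% of Retnlg. At least 10 endothelial marker UMIs were present in 7 Dlk1-high cells and 1 Dlk1-low cell. With thinning before the rule, Selp turned to 5.90 and Rgs5 to 3.57, higher in the Dlk1-low cells. Serpinf1, which encodes the anti-angiogenic factor PEDF, was spread more widely. It stood at 10.9 against 69.0 CPM, 5 cells held 14.1% of its UMIs in Dlk1-high cells, and its log2 ratio was -2.66, or -3.57 without the 5 richest cells of each class.

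Several genes formed a gradient across the limit. From cells with none of Dlk1, Fbn2 and Mmp2 to cells with all 3, Serpinf1 went from 3.26 through 11.99 and 49.9 to 159 CPM and Mgp from 1116 through 1754 and 2666 to 6537. Ucma itself went from 2172 to 4617 CPM and H19 from 1501 to 3213. Omd, a keratan sulfate proteoglycan, ran the other way, from 616 through 326 and 148 to 74.2 CPM. Igf1 did neither: it was 32.6 CPM in cells with none, 198 with 1, 97.9 with 2 and 45.8 with 3. The cells with 1 gene were of unlike kinds. The 491 with Mmp2 had Igf1 at 225, Omd at 287 and Serpinf1 at 7.58 CPM, while the 80 with Dlk1 had Igf1 at 22.1, Omd at 604 and Serpinf1 at 42.8 CPM. The number of these genes that reach 2 UMIs also depends on depth, and the median UMIs of the first group were 17304.5.

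**Figure D3:**
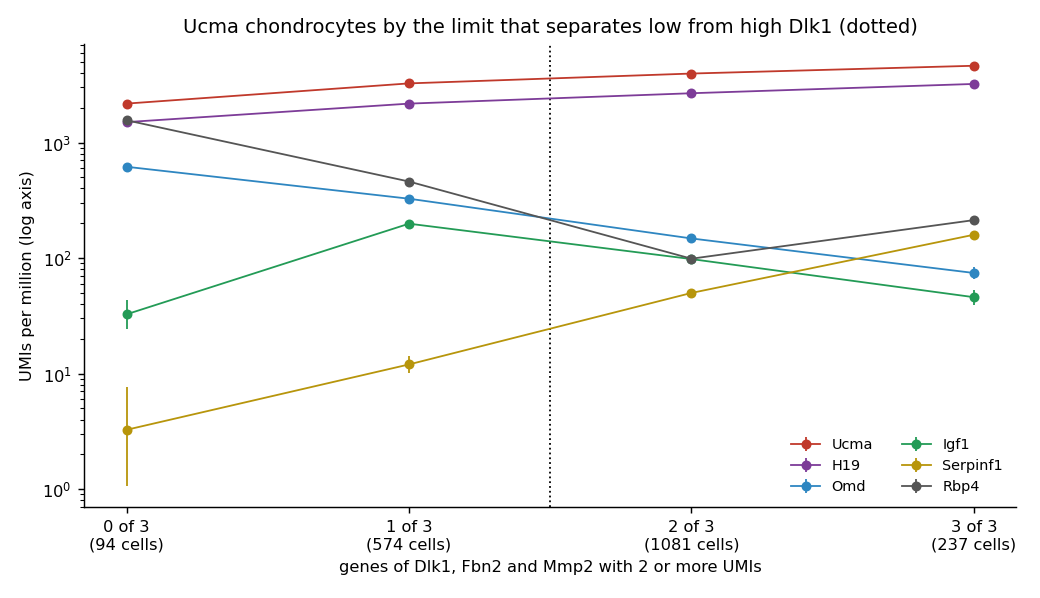
Summed UMIs per 1000000 (log axis, 95% Poisson intervals) of 6 genes in Ucma chondrocytes grouped by how many of Dlk1, Fbn2 and Mmp2 had 2 or more UMIs; the dotted line is the limit of the rule. Igf1 was highest with 1 of 3 (198 CPM), of which Mmp2-only cells had 225 and Dlk1-only cells 22.1, while Serpinf1 went from 3.26 to 159 CPM.

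The 668 cells held a minority with a distinct matrix programme, found after the data were seen. Rbp4, the retinol-binding protein, reached at least 10 UMIs in 44 cells (6.59%, interval 4.83% to 8.74%). The same was true of 2.88% of Dlk1-high, 14.97% of Omd Lox Frzb and 1.36% of hypertrophic cells. Osteoblast markers reached 10 UMIs in 32 of these 44 cells and in 12 of the other 624. The 44 had 3 of the 6 osteoblast markers, with a sum of 10924 CPM that was almost all Col1a1, against 258 CPM in the others. Tendon markers were higher too, at 3829 CPM and a median of 77.5 UMIs per cell, against 1936 CPM and 33 UMIs in the others. Hypertrophic markers were lower, at 402 against 1031 CPM. Endothelial markers were at 0 UMIs in the 44. All 13 cartilage markers were present, and how far cells of another type take part was not tested. The median depth was 21095 UMIs in these 44 and 18019.5 in the other 624. Their median doublet scores were 0.0565 and 0.0446, and 0 of the 44 scored above 0.25. Since Scrublet did not work at P10, nothing is read from these scores. Because the 44 were picked by Rbp4, their levels are a description.

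In the 44 cells type I collagen stood at 10918 CPM of Col1a1, against 251 in the other 624, and Col3a1 at 1779 against 74.5. Of 19 fibrous matrix genes 12 were at least 2-fold higher and 2 lower, where of all 6883 genes measured 586 (8.51%) were higher and 871 (12.7%) lower. Against Dlk1-high cells the median of the fibrous matrix list was 0.08 with all cells and -0.63 without cells that had 10 or more Rbp4 UMIs. Some single genes, chosen after their values were seen, differed far more. Prg4 was at 351 against 2.14 CPM, the growth factor Gdf5 at 148 against 0.801, the transcription factor Barx1 at 145 against 1.16 and the Wnt inhibitor Wif1 at 1104 against 28.7. Barx1 was detected in 79.5% of the 44 and 1.92% of the others. The uncharacterised transcript 1520401A03Rik, outside the rule for named genes, was at 7919 against 7.75 CPM. The 12 genes highest over Dlk1-high cells were Rbp4, Dmkn, Sbsn, Edn2, Ppp1r14a, P2ry14, Gdf5, Barx1, Cp, Cilp, Synm and A2m. Of these, Dmkn (214 against 1.69 CPM), Sbsn (899.98 against 16.5), Ppp1r14a (89.5 against 1.51), Cp (202 against 3.83) and Cilp (138 against 2.58) also stood higher in the 44. A2m, a protease inhibitor, did not, at 0.942 CPM in the 44 and 49.3 in the others. Without cells that had 10 or more Rbp4 UMIs the Rbp4 ratio over Dlk1-high cells turned from 2.33 to -0.65, and genes at least 2-fold higher numbered 43 rather than 74.

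Cartilage genes of the 44 cells lay in both directions. Of 19 cartilage matrix genes 8 were at least 2-fold lower and 4 (Prg4, Chad, Vcan and Cilp) at least 2-fold higher. Their median log2 ratio was -0.72, and of all genes 12.7% were lower and 8.51% higher. The 13 cartilage markers summed to 118287 CPM against 91456, but most of each sum was Col2a1, given below. Col9a3, a chain of the type IX collagen of hyaline cartilage, was at 598 against 7474 CPM, and the matrilin Matn3 at 42.4 against 908. Col2a1 was not lower, at 103978 against 53019 CPM. Igf1 was at 1.88 against 194 CPM and Ptx3 at 1.88 against 172, each seen in 4.55% of the 44 cells against 50.3% and 46.3% of the others. H19 stood at 200 against 2265 CPM, and 9 of 16 imprinted growth genes were at least 2-fold lower and 1, Nnat, higher, beside 12.7% and 8.51% of all genes. Ucma was at 1317 against 3284 CPM. The 217 Omd Lox Frzb cells with 10 or more Rbp4 UMIs had Col1a1 at 6446, Barx1 at 66.9 and Igf1 at 3.90 CPM.

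**Figure D4:**
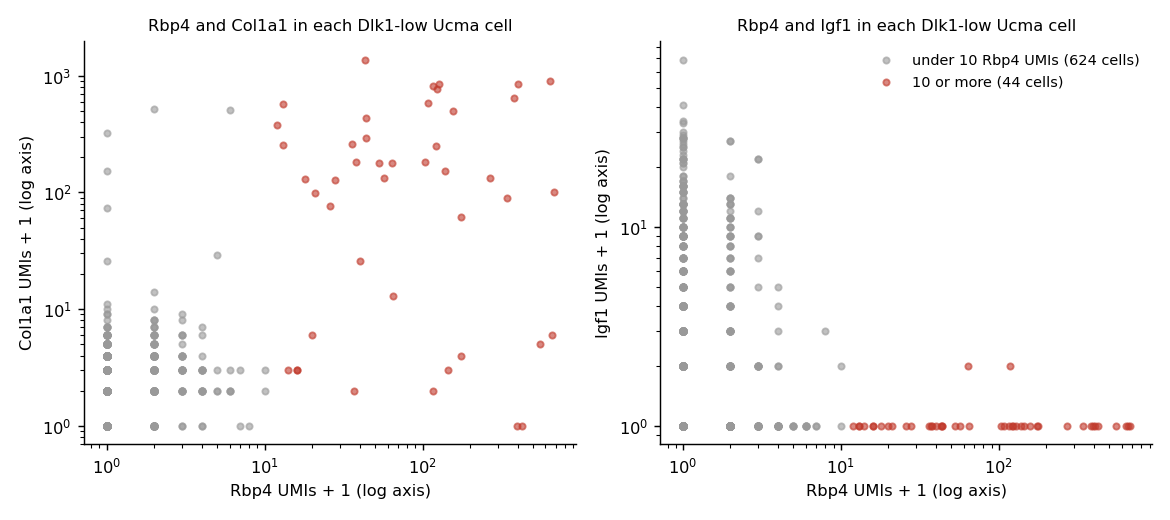
UMIs of Rbp4 against Col1a1 (left) and Igf1 (right) in each of the 668 cells, both axes on a log scale with 1 added; red marks the 44 cells with 10 or more Rbp4 UMIs. Most red cells lay high for Col1a1, and nearly all of them at 0 for Igf1.

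Against Omd Lox Frzb chondrocytes, 424 of 10132 genes (4.18%) were at least 2-fold higher and 376 (3.71%) at least 2-fold lower, with a median log2 ratio of 0.12. The sets that chose the classes come from the same cells, so nothing is read from these shares. Igf1 led the higher genes, with a log2 ratio of 4.43 (4.26 to 4.62). Scube2, a secreted protein that releases hedgehog ligands, was at 49.0 against 4.08 CPM, and the Ptx3 of the rule at 157 against 21.1. Xlr3c, Mamdc2, Mgst2, Pla2g7, Gal and Syt8 made up the rest of the highest 8.

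Of 11 genes of the hedgehog and PTHrP list, 4 were at least 2-fold higher than in Omd Lox Frzb cells and 0 lower. Of all genes 4.18% were higher and 3.71% lower. The receptor Ptch1 was at 55.5 against 17.1 CPM, the inhibitor Hhip at 43.2 against 9.62 and the effector Gli1 at 12.2 against 4.22, while Pthlh was at 56.5 against 10.3. Hhip and Pthlh were also at least 2-fold higher in the 44 Rbp4-rich cells than in the other members. Over Dlk1-high cells the list's median was 0.12, with 1 gene at least 2-fold higher and 0 lower. Against Omd Lox Frzb cells, hyaluronan and proteoglycan synthesis genes had a median of 0.56 over 23 genes, 6 at least 2-fold higher and 0 lower. The lowest genes were Lbhd2, Mepe, AW112010, Ibsp, Saa1, Bglap, Dmp1 and Fxyd3, several of them mineral-binding proteins of bone. Ibsp, bone sialoprotein, was at 7.81 against 348 CPM and Mepe at 0.0814 against 68.6, from 1 UMI in the 668 cells. Bglap, osteocalcin, was at 0.651 against 18.8 CPM.

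Against hypertrophic chondrocytes, 624 of 9045 genes (6.9%) were at least 2-fold higher and 798 (8.82%) at least 2-fold lower, with a median log2 ratio of -0.17; the classes differ in median depth, 18118.5 against 31607.5 UMIs. Of 14 hypertrophy and mineralization genes, 9 were at least 2-fold lower and 1 higher (median -2.39). Alpl, tissue-nonspecific alkaline phosphatase, was at 14.9 against 352 CPM, Spp1, osteopontin, at 203 against 1296 and the PTHrP receptor Pth1r at 147 against 883. The other lowest genes were AW112010, Irx5, Tff1, Ddit4l, Hp, Grb14 and Ppa1. Ppa1, inorganic pyrophosphatase, was at 266 against 4735 CPM.

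The hedgehog and PTHrP list had 7 of 11 genes at least 2-fold higher than in hypertrophic cells, 0 lower and a median of 1.98. Of all genes 6.9% were higher and 8.82% lower. Pthlh had a log2 ratio of 6.81 (5.76 to 8.13). Apoe, the lipid carrier, was at 955 against 27.6 CPM and the secreted Srpx2 at 155 against 6.17, both seen in most of the 668 cells (78.7% and 69.3%). Msmp, Cntn1 and Mmp3 were among the 8 highest as well, and 5 cells held 82.4% of the Msmp UMIs. Contractile genes were higher, 8 of 16 at least 2-fold and 0 lower, among them Tagln at 23.8 against 8.47 CPM. Mural markers, Acta2 among them, reached 10 UMIs in 19 of the 668 cells and in 2 of the 440 hypertrophic cells. Cnn1, another of the 8, was seen in 37 of the 668 cells, and 5 cells held 46.1% of its UMIs. The part of mural cells in this difference was not tested. Oxidative phosphorylation genes were lower, with a median of -0.79 over 26 genes.

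At 8 weeks 465 of 6481 kept cells met the same rule, or 7.17% (6.56% to 7.83%), with a median of 17124 UMIs. Their Dlk1 level was 0.586 CPM against 55.8 at P10, and Mmp2 was at 37.2 against 340. Of 9105 genes, 376 (4.13%) were at least 2-fold higher at P10 and 2058 (22.6%) at least 2-fold lower, with a median of -0.44. Centred on that median, the numbers were 722 and 1027. The same rule's genes chose both sets of cells.

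Imprinted growth genes were higher at P10, with 10 of 16 at least 2-fold higher, 0 lower and a median of 1.55. H19 was at 2087 against 353 CPM, Igf2 at 61.7 against 3.63 and Cdkn1c at 536 against 57.9. Col14a1, Gpc3, Cntn1, Lmo1, Serpina3c, Slc7a11, Hist1h2br and Hist1h3d were the 8 highest, and Gpc3, a glypican that limits growth, was at 70.5 against 2.93 CPM. Mgp ran the other way, at 1675 at P10 against 25628 at 8 weeks. Igf1 (178 against 145 CPM), Ptx3 (157 against 175) and Gas6 (62.7 against 55.98) lay nearer to each other at the ages.

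Genes lower at P10 included Serpina1a, at 0 UMIs in the 668 cells and 84.6 CPM at 8 weeks, and Hp, haptoglobin, at 0.407 against 158 CPM. Bglap, Serpina1d, Gjb6, Serpina1b, F5 and Srcin1 completed the 8 lowest. All 24 immediate early and heat shock genes were clear and lower at P10, as were 58.6% of all genes, and 16 of them were at least 2-fold lower (median -1.71 beside -0.44 for all genes), with Fos at 995 against 2766 CPM and Hspa1b at 161 against 1037. These genes also respond to tissue dissociation, whose part in the difference was not tested.

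Reporter sequences were scarce in the Dlk1-low cells. TDT, the tdTomato sequence, had 5 UMIs in 5 of the 668 cells, or 0.407 CPM (0.132 to 0.949). WPRE4, the more abundant of the reporter-related sequences deposited, had 262 UMIs, or 21.3 CPM (18.8 to 24.1), and 1 cell reached 10 UMIs. The 44 Rbp4-rich cells held 90 of those UMIs, at 84.8 CPM (68.2 to 104), among them the 1 cell that reached 10, with 27. The other 624 cells had 15.3 CPM (13.1 to 17.8). Dlk1-high cells had 27.9 CPM, Omd Lox Frzb cells 36.2 and hypertrophic cells 16.9. Krt8-positive cells, the kind that nucleus pulposus cells belong to, had 2336 CPM of WPRE4 and 17.8 of TDT. A WPRE4 UMI was present in 24.0% of the 668 cells (median 18118.5 UMIs) and in 24.5% of the 53 neutrophils (median 4293 UMIs), whose level was 64.0 CPM. Neutrophils had 0 TDT UMIs, which allows up to 16.9 CPM at their depth. How much of the WPRE4 signal is free RNA was not tested. CRE and EGFP had 0 UMIs, which the upper interval bound puts at no more than 0.300 CPM. At 8 weeks, cells of the same rule had 72.6 CPM of WPRE4 and 1.05 of TDT. Tagln, whose promoter drives the Cre, was at 23.8 CPM in the 668 cells and was seen in 14.5% of them.

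**Figure D5:**
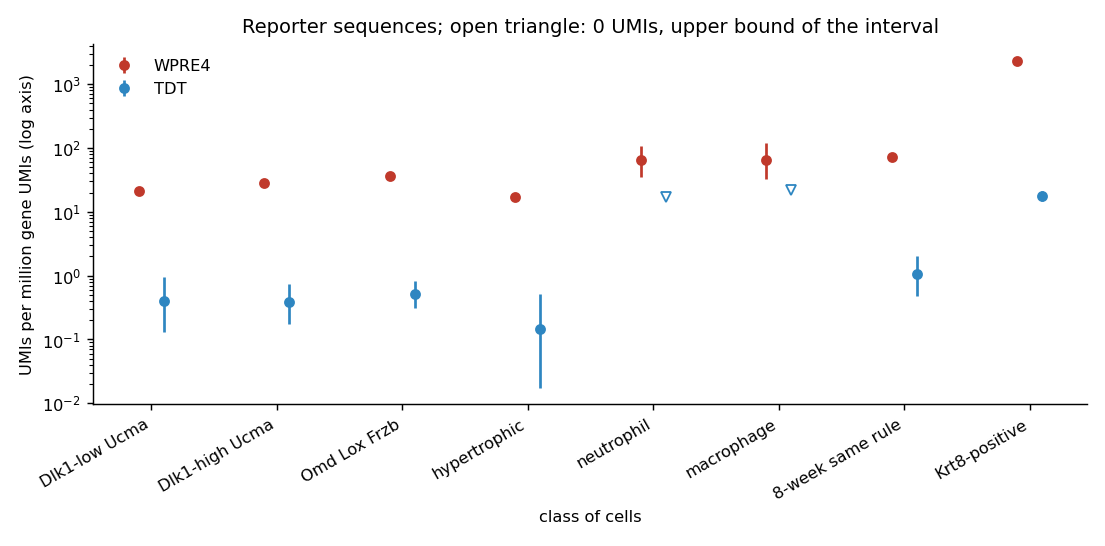
Reporter UMIs per 1000000 gene UMIs (log axis) in 8 classes of cells with 95% Poisson intervals; open triangles give the upper bound where no UMI was found. The 668 Dlk1-low Ucma cells had 21.3 CPM of WPRE4, against 64.0 in neutrophils; the 44 Rbp4-rich cells of the 668 had 84.8 CPM, and Krt8-positive cells had 2336.

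Genes of the Hox 12 and 13 groups, which mark the tail end of the spine, were seen in 382 of the 668 cells (57.2%, 53.3% to 61.0%), at 61.3 CPM. Dlk1-high cells had 61.7 CPM, Omd Lox Frzb cells 58.8 and hypertrophic cells 45.5. The intervals of the Dlk1-low and Dlk1-high cells overlapped, at 57.0 to 65.9 and 58.5 to 64.9 CPM.

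Levels also moved with depth among the 668 cells. From the 167 shallowest to the 167 deepest cells (median 11575 and 24905 UMIs), Omd went from 168 to 438 CPM, C1qtnf3 from 100 to 367 and Rbp4 from 140 to 1081, while Penk went from 645 to 312 and Dlk1 from 110 to 36.1. Omd, C1qtnf3, Penk and Dlk1 are genes of the rule, whose limits are UMIs per cell. The part of the rule in these moves was not tested.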

How the data were processed

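Per the submitters' processing notes, the authors used Cell Ranger 3.1.0 and Seurat 3 with the mm10 (GRCm38) build. The deposited matrices hold whole-number UMI counts per gene and cell made by the authors from their reads, and a second matrix per age holds counts of exogenous sequences, joined here by barcode. Names of 4 samples per age are not attached to cells, and 0 columns of values were left without a mapping.

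Cells were classed by the rule in Python 3.11.15 (numpy 2.4.6, scipy 1.17.1, pandas 2.3.3, scanpy 1.11.5 for Scrublet at an expected doublet rate of 6%). UMIs were summed per class and divided by the class total. Levels carry exact Poisson intervals, ratios exact conditional binomial intervals and shares Clopper-Pearson intervals, at 95%, covering counting error only. Coverage of the ratio intervals was checked on simulated Poisson counts, the model that the intervals assume. That check does not cover genes whose UMIs lie mostly in a few cells. Ratios used genes with 100 or more UMIs in both sums together, and 3 UMIs stood in for 0. Thinning drew 5000 UMIs per cell.

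Members and gene lists were chosen with earlier results of these data known. Named genes were the 12 highest and lowest by interval bound against Dlk1-high cells, 8 in the other comparisons, the 12 highest over all 3 classes, the 15 most abundant genes and up to 4 genes per list, without mitochondrial, ribosomal, Gm and Rik genes. Outside that rule, C1qb, C1qc, Igfbp5, Igfbp3, Igf1r, Igf2r, Pappa, Col11a2, Chad, Vcan, Pfkp, Slc16a3, Car9, Epas1, Nnat, Bnip3, Pgk1, Col3a1, Fos, Gli1, Hspa1b, Igf2, Matn3, Mest, Ndufa4l2 and 1520401A03Rik were named after their values were seen. UMIs are not per length, so levels are compared between classes and not between genes. The alternatives were depth, detection limits, doublets, other markers, gene minimum, fold and centring.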

Additional observations from a re-analysis of the deposited data

How the results depend on the processing

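No paired analysis was possible because cells are not mapped to samples, and with 1 library per age no replicate could be left out. The number of Dlk1-low cells was 668 and became 364 where a gene of the rule counted from 1 UMI and 1049 where cells were thinned to 5000 UMIs first; thinning also gave 249 cells at 8 weeks in place of 465. The WPRE4 level was 37.0, 31.8, 18.6, 17.2, 25.3 and 15.3 CPM with a count from 1 UMI, thinning, cells of 10000 to 30000 UMIs, no cells with 10 or more UMIs of other cell types' markers, Acan from 1 UMI and no Rbp4-rich cells. The marker alternative left out tendon and hypertrophic markers, which most chondrocytes hold.

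Genes at least 2-fold higher and lower than in Dlk1-high cells became 185 and 68 with thinning, 26 and 33 with genes of 500 or more UMIs, 635 and 1074 with no minimum, and 248 and 569 at a fold of 1.5. The lower number became 81 without cells with other markers and 219 without the 5 richest cells per gene, and the higher number 43 without Rbp4-rich cells. Against Omd Lox Frzb cells the pairs were 147 and 202, 1818 and 1005, and 1232 and 787 for 500 UMIs, no minimum and a fold of 1.5. Against hypertrophic cells they were 212 and 413, 2089 and 1688, and 1183 and 2141, then 385 and 313 without cells with other markers, and 350 lower with 10000 to 30000 UMIs. Against 8 weeks they were 208 and 783, 1003 and 4877, 696 and 3816, and 722 and 1027 when centred on the median gene. The cause of these moves was not tested, beyond fewer or more genes entering with the minimum and the fold.

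Against Dlk1-high cells, thinning turned the log2 ratios of Selp to 5.90, Retnlg to 1.96, Rgs5 to 3.57, Pecam1 to 4.47 and Emcn to 4.27, and the cell cycle median to 0.30. Emcn was 0.00453 with Acan from 1 UMI, and Rbp4 -0.65 without Rbp4-rich cells. Of 1507 list medians under the alternatives, 1474 lay within the order-statistic interval of the list's main median, 32 moved beyond it and 1 changed sign from a main interval that excluded 0. For the shortest lists that interval is the whole range of the list, so a move beyond it is hard to reach. Of 840 log2 ratios of named genes, 634 lay within the counting interval of the main value, 199 moved beyond it and 7 changed sign in that way. The 634 include 72 ratios with no minimum of UMIs and 36 with genes of 500 or more UMIs. Those could not move, because the minimum decides only whether a gene enters. The alternatives without Rbp4-rich cells and without the 5 richest cells were chosen after seeing the data.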
